A study of Felis catus with 2 samples.

Results

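The carriers, pumps and enzymes that move ions and water were examined in RNA from the iridocorneal angle of 1 normal and 1 affected cat. Members were taken from the deposited table by the letters of their gene names, as aquaporins (AQP), carbonic anhydrases (CA), subunits of the Na,K-ATPase (ATP1A and ATP1B), and the SLC4, SLC9, SLC12, SLC26 and CLC (CLCN) families. Only rows with a single name were used, and where a name stood on more than 1 row the row with the higher mean was taken. This gave 73 genes of the 19181 single names in the table, which lists 32065 loci in all. The letters also caught 3 genes that are not carriers, namely SLC4A1AP and the scaffold proteins SLC9A3R1 and SLC9A3R2, and 6 other genes are not reported here and enter no count below. This left 67 genes, 64 of them with names of the 8 families.

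The affected library came from a 2 month-old cat with primary congenital glaucoma (PCG), from a pedigree in which the recessive disease is attributed to a 4-bp insertion in *LTBP2*. The normal library came from an unrelated healthy cat of the same age. The tissue took in the ciliary body, trabecular meshwork and adjoining sclera as well as the angle itself, so it is a mixture of cell types. In such bulk RNA, fewer cells of a type and less RNA per cell cannot be told apart. With 1 library per condition no difference could be tested, and every value describes these 2 libraries only.

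Aqueous humour is secreted by the ciliary epithelium, a double layer in which a pigmented layer faces the stroma and a nonpigmented layer faces the posterior chamber. Sodium, potassium and chloride enter the pigmented layer through the cotransporter SLC12A2 and through paired chloride-bicarbonate and sodium-hydrogen exchangers, whose substrates are supplied by carbonic anhydrase. Ions then cross gap junctions into the nonpigmented layer, where the Na,K-ATPase extrudes sodium, chloride leaves through channels and water follows through aquaporins. Carbonic anhydrase is the target of a class of pressure-lowering drugs.

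Levels are given in FPKM, fragments scaled for exon length and for the size of the library, so that genes of different length can be ordered. Low values were whole multiples of the value of a single fragment, which on 1 kilobase of effective length was 0.0141 FPKM in the normal cat and 0.0148 FPKM in the affected cat. At that length a value of 1 FPKM stands for 71.1 fragments in the normal cat and 67.4 in the affected cat. The table gives no transcript lengths, so counting intervals below are 95% exact (Clopper-Pearson) intervals for 1 kilobase of effective length. They cover counting error only and not the variation between cats. Log2 ratios are log2 of (affected + 1) over (normal + 1) and understate the difference of low genes. Genes entered with 1 FPKM or more in either library, and a log2 ratio of at least 1 in size is called here, without a test.

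Of the 67 members described, 48 reached 1 FPKM and 19 did not. Among the 48, 4 were called higher and 4 lower in the affected library. Among all 12724 single-name genes past the same minimum, 6.63% were called higher and 8.46% lower, against 8.33% of the members in either direction, so the members were called about as often as genes in general. Their median log2 ratio was -0.0068, beside -0.02 for all genes, with 24 above and 24 below 0, and 23 of the 48 lay within 0.5 of 0. The sign of this median turned under 4 other settings, where it lay between 0.02 and 0.24. The higher genes were *SLC12A5*, *SLC4A7*, *SLC9A7* and *CLCN7*, and the lower genes were *CA2*, *SLC4A5*, *SLC26A7* and *AQP3*. The members described summed to 1776 FPKM in the normal cat and 1481 FPKM in the affected cat, or 0.274% and 0.220% of the summed FPKM of the table. Of these sums *CA2* and *CA3* together held 845 and 351 FPKM. A row named *SLC26A3*, whose name is doubtful as described below, held 114 and 109 FPKM.

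**Figure D1:**
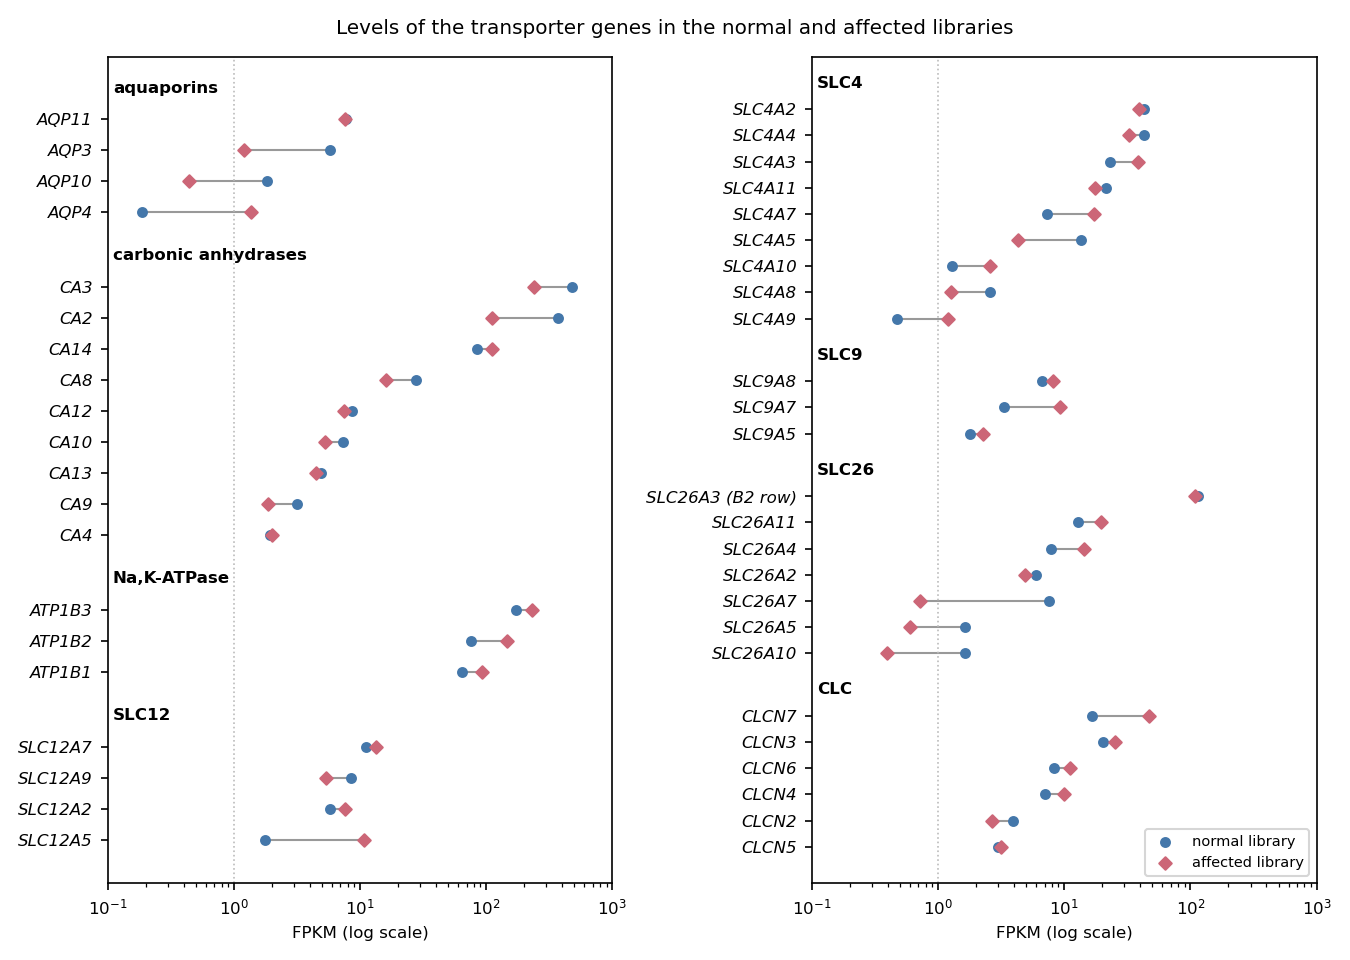
FPKM (log axis) of the 45 transporter genes described that reached 1 FPKM in at least 1 library, by family and ordered by mean, with the normal library as circles and the affected library as diamonds. Carbonic anhydrases *CA3* and *CA2* and the 3 expressed beta subunits of the Na,K-ATPase lie far to the right, with *CA14* and the B2 row of *SLC26A3*, the aquaporins lie below 10 FPKM, and the dotted line marks 1 FPKM.

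The family medians lay on both sides of 0. The 3 beta subunits of the Na,K-ATPase and the 3 SLC9 exchangers described here that reached 1 FPKM were higher in the affected library, with median log2 ratios of 0.52 and 0.24. In the CLC family 5 of 6 genes were higher, with a median of 0.34, and in the SLC12 family 3 of 4, with a median of 0.29. Of all genes 48.3% were higher, and only 1 gene each was called among those described in the CLC, SLC12 and SLC9 families. Carbonic anhydrases leaned the other way, with 7 of 9 lower and a median of -0.42, as did the aquaporins, with 3 of 4 lower and a median of -0.50. The SLC4 family was mixed, with 4 of 9 higher and a median of -0.14. The SLC26 median was -0.24 with 2 of 7 higher, and it was -0.48 without a row of doubtful name that is described below. Several of these medians depended on the minimum level used. Over genes whose mean reached 5 FPKM the SLC26 median turned to 0.25, the aquaporin median was -0.041 and the SLC9 median 0.74. This minimum is not independent of the differences. *SLC26A7* and *AQP3* fell under it through their affected values of 0.72 and 1.21 FPKM. *SLC9A7* reached it through 9.26 FPKM in the affected library, against 3.35 FPKM in the normal one. The SLC26 value of 0.25 still includes the row of doubtful name. With no minimum the medians were -0.041 for aquaporins, -0.14 for carbonic anhydrases and 0.055 for SLC12.

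**Figure D2:**
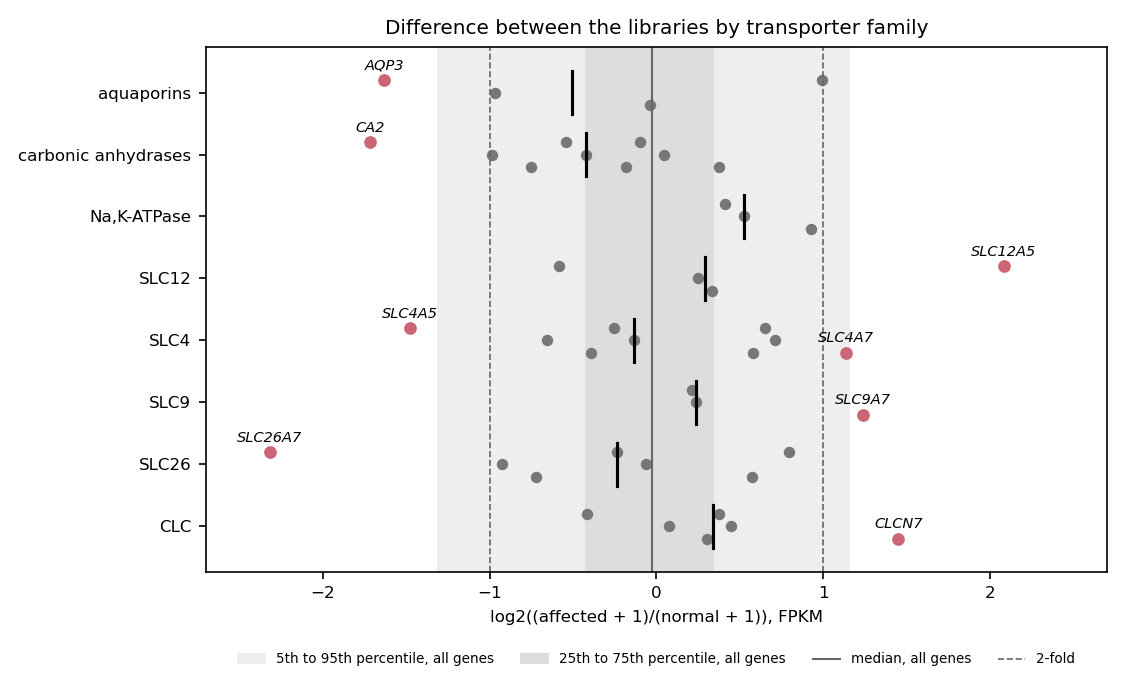
Log2 ratio of each expressed member, affected over normal, by family. Black bars are family medians, coloured points are the 8 called genes, dashed lines mark a 2-fold difference, and the shaded bands hold the central 50% and 90% of all 12724 genes, from -0.42 to 0.34 and from -1.31 to 1.15.

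The Na,K-ATPase is a pump of a catalytic alpha and an accessory beta subunit, and the beta transcripts were among the most abundant of the set. *ATP1B3* led in both libraries, with 172 FPKM in the normal cat and 229 FPKM in the affected cat. *ATP1B2*, also known as an adhesion molecule on glia, was listed at 76.3 and 146 FPKM, a log2 ratio of 0.92. *ATP1B1* was listed at 64.1 and 92.5 FPKM, a log2 ratio of 0.52. All 3 were thus higher in the affected library without a call, and their order was the same in the 2 libraries. Their sum was 312 FPKM in the normal cat and 467 FPKM in the affected cat, of which *ATP1B3* made up 55.0% and 49.0% and *ATP1B2* 24.4% and 31.2%. *ATP1B4* was listed at 0 in both, and *ATP1A4*, an alpha isoform of sperm, was under 0.15 FPKM in both. The span listed for *ATP1B2* is shared with 43 other rows of the table and that of *ATP1B1* with 3, so these coordinates are those of a crowded region and not of the gene.

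**Figure D3:**
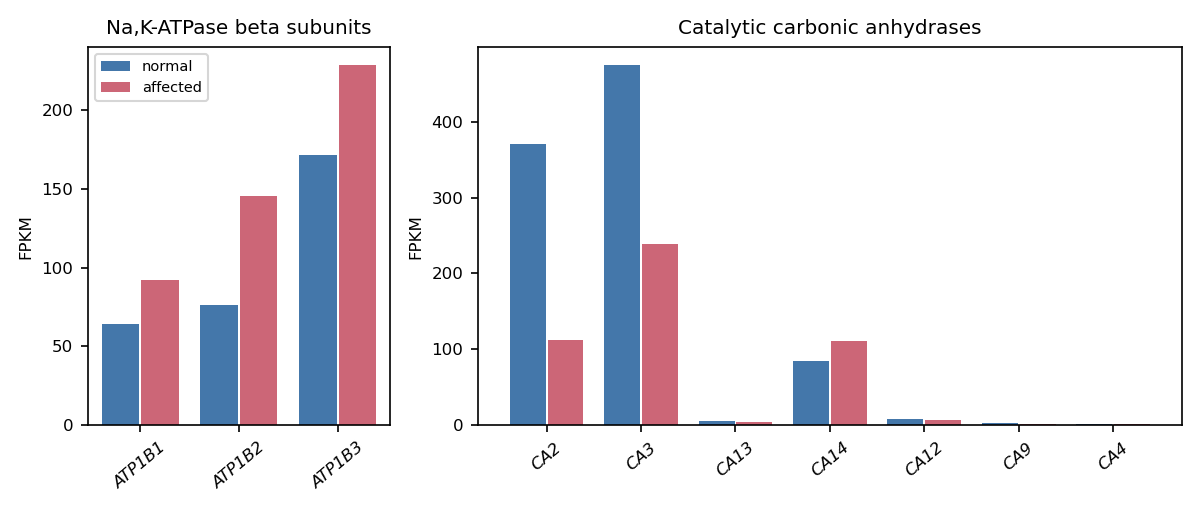
FPKM of the expressed Na,K-ATPase beta subunits (left) and of the expressed catalytic carbonic anhydrases (right) in the normal and affected library, as bars from 0. All 3 beta subunits are taller in the affected library, while *CA2* and *CA3* are shorter there and *CA14* is taller.

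Carbonic anhydrases convert carbon dioxide and water into bicarbonate and a proton. *CA2*, the fast cytosolic enzyme of ciliary epithelium, was listed at 370.2 FPKM in the normal cat and 112 FPKM in the affected cat. This was 3.31-fold lower in the affected library (counting interval 3.22 to 3.39), with a log2 ratio of -1.72. *CA3*, a cytosolic enzyme of low activity best known from muscle and fat, was listed at 475 and 239 FPKM, a log2 ratio of -0.99 that falls just short of a call. *CA3* had the highest FPKM of the members described in both libraries, while *CA2* stood at rank 2 in the normal and rank 4 in the affected library. Both genes stand beside each other on chromosome F2 of felCat5, *CA3* at 33003570 to 33014718 and *CA2* at 33027170 to 33044750. Their neighbours *CA13*, at 4.88 and 4.48 FPKM, and *CA1*, a red cell enzyme at 0.14 and 0.099 FPKM, lie within the same 223 kilobases. The 4 genes of this cluster thus had very different levels, and the pair of abundant genes was lower in the affected library.

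The membrane-bound carbonic anhydrases differed less, and not all in the direction of *CA2*. *CA14*, a transmembrane enzyme, was listed at 85.1 FPKM in the normal cat and 111 FPKM in the affected cat. *CA12*, which acts at the basolateral face of epithelia, was listed at 8.65 and 7.49 FPKM, *CA4* at 1.93 and 2.03 FPKM and *CA9*, a gene induced by low oxygen, at 3.19 and 1.87 FPKM. Summed, the 4 membrane enzymes held 98.8 FPKM in the normal cat and 122 FPKM in the affected cat, while the 5 cytosolic enzymes held 850.1 and 356 FPKM. *CA2* was 4.35 times the level of *CA14* in the normal library and 1.01 times in the affected library. The related proteins *CA8* and *CA10*, which lack catalytic activity, were listed at 27.7 and 16.1 FPKM and at 7.37 and 5.25 FPKM.

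The SLC12 family holds the electroneutral cation-chloride cotransporters. *SLC12A2*, the Na-K-2Cl cotransporter that loads chloride into the pigmented layer, was listed at 5.79 FPKM in the normal cat and 7.54 FPKM in the affected cat. The potassium-chloride cotransporter *SLC12A7* was listed at 11.2 and 13.5 FPKM. *SLC12A5*, the potassium-chloride cotransporter of neurons, stood apart with 1.77 FPKM in the normal cat and 10.7 FPKM in the affected cat. This was 6.06-fold higher in the affected library (counting interval 5.02 to 7.41) and its log2 ratio of 2.08 was the highest of the members described. It lies on chromosome A3 at 14853712 to 14888780. The kidney cotransporters *SLC12A1* and *SLC12A3* were at most 0.51 FPKM in either library. *SLC12A9*, a member with no well-defined substrate, was listed at 8.55 and 5.37 FPKM.

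Photoreceptor markers were higher together with *SLC12A5*, while neuron markers were mixed. Of 7 photoreceptor markers 5 were analysed, and all 5 (*SAG*, *PDE6B*, *PRPH2*, *RCVRN* and *CNGB1*) were called higher, beside 6.63% of all genes. Their sum was 263 FPKM in the normal cat and 1283 FPKM in the affected cat. Of 5 neuron markers 4 were analysed, with sums of 58.6 and 99.1 FPKM, where *SNAP25* was called higher and *RBFOX3*, *STMN2* and *ELAVL4* had log2 ratios between -0.83 and -0.27. No marker of either list was at 0 in a library. The part of these cells in the differences of *SLC12A5* and *ATP1B2* was not tested.

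Most members of the SLC4 family carry bicarbonate. The anion exchanger *SLC4A2*, which brings chloride into the pigmented layer in exchange for bicarbonate, was listed at 42.8 FPKM in the normal cat and 38.8 FPKM in the affected cat. Its relative *SLC4A3* was listed at 22.9 and 38.1 FPKM. The electrogenic sodium-bicarbonate cotransporter *SLC4A4* was listed at 43.0 and 32.6 FPKM, and *SLC4A11*, a carrier of the corneal endothelium, at 21.3 and 17.7 FPKM. None of these 4 was called, although they are the carriers of highest level in the family. Both called genes were sodium-bicarbonate cotransporters of lower level, and they differed in opposite directions.

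*SLC4A5*, an electrogenic sodium-bicarbonate cotransporter, was listed at 13.7 FPKM in the normal cat and 4.27 FPKM in the affected cat, 3.20-fold lower (counting interval 2.80 to 3.66), with a log2 ratio of -1.48. It is listed on chromosome A3 at 92722005 to 92845097, a span shared with 1 other row. *SLC4A7*, an electroneutral sodium-bicarbonate cotransporter on chromosome C2 at 142487382 to 142565333, was listed at 7.36 and 17.4 FPKM, 2.36-fold higher (2.13 to 2.62), with a log2 ratio of 1.14. Thus *SLC4A5* was above *SLC4A7* in the normal library and below it in the affected library. At lower levels, the sodium-driven exchangers *SLC4A8* and *SLC4A10* were listed at 2.57 and 1.27 FPKM and at 1.29 and 2.59 FPKM. *SLC4A9* was listed at 0.47 and 1.19 FPKM, and a second row of the same name and span at 0.68 and 0.10 FPKM, so the direction of this gene differs between its rows. *SLC4A1*, the anion exchanger of red cells, was listed at 0.20 FPKM in the normal cat and at 0 in the affected library. Of 7 red cell markers 4 were analysed, with sums of 4.15 and 2.05 FPKM. Of the 2 that reached 1 FPKM, *AHSP* was called lower and *EPB42* was listed at 0.57 and 1.27 FPKM. Their part in the difference of *SLC4A1* was not tested.

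The SLC9 family exchanges sodium for protons. *SLC9A8*, an exchanger of endosomes and the Golgi apparatus, was listed at 6.72 FPKM in the normal cat and 8.10 FPKM in the affected cat. *SLC9A7*, which acts in the trans-Golgi network, was listed at 3.35 and 9.26 FPKM, 2.77-fold higher in the affected library (counting interval 2.38 to 3.22), with a log2 ratio of 1.24. It lies on chromosome X at 40157842 to 40226463 and was the only called gene among those of its family described here. *SLC9A5* was listed at 1.81 and 2.25 FPKM. *SLC9A2*, *SLC9A3* and *SLC9A4* stayed at or under 0.62 FPKM in both libraries, and *SLC9A4* was listed at 0 in the affected one, while its second row, of the same span, was listed at 0.169 and 0.0229 FPKM.

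The CLC family holds plasma membrane chloride channels and the chloride-proton exchangers of intracellular membranes. *CLCN7*, the exchanger of lysosomes, was listed at 16.6 FPKM in the normal cat and 47.2 FPKM in the affected cat, 2.83-fold higher (counting interval 2.65 to 3.03), with a log2 ratio of 1.45. It lies on chromosome E3 at 41792778 to 41810287. *OSTM1*, its obligate beta subunit, was listed at 12.3 and 16.3 FPKM, so its log2 ratio of 0.37 was well below that of *CLCN7*. *CLCN3*, an exchanger of endosomes, was listed at 20.4 and 25.4 FPKM, *CLCN6* at 8.26 and 11.0 FPKM, *CLCN4* at 7.03 and 9.94 FPKM and *CLCN5* at 2.96 and 3.17 FPKM. None of these 4 was called, and for *CLCN5* the counting interval of the fold, 0.876 to 1.29, held 1. *CLCN3* therefore led this family in the normal library and *CLCN7* in the affected one. The plasma membrane channel *CLCN2* was lower, at 3.92 and 2.69 FPKM, and *CLCN1*, the channel of skeletal muscle, was under 0.37 FPKM in both.

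The SLC26 family carries chloride, bicarbonate, sulfate and other anions. *SLC26A7*, an anion exchanger, had the lowest log2 ratio of the members described, -2.32, with 7.56 FPKM in the normal cat and 0.72 FPKM in the affected cat. This was 10.5-fold lower (counting interval 7.75 to 14.2), and the gene lies on chromosome F2 at 37911408 to 38079493. *SLC26A4*, or pendrin, went the other way with 7.79 and 14.2 FPKM, and so did *SLC26A11*, a sulfate carrier, with 12.8 and 19.6 FPKM. The sulfate carrier *SLC26A2* was listed at 5.93 and 4.88 FPKM. *SLC26A10* and *SLC26A5*, the hair cell motor prestin, were both listed near 1.65 FPKM in the normal library, and at 0.39 and 0.60 FPKM in the affected library. They were not called on the scale used here, although their plain ratios were 4.19-fold and 2.73-fold lower.

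The row named *SLC26A3* that the selection took needs a separate word. It lies on chromosome B2 at 34274146 to 34279049, between *BTNL2* and *FLA-DRB*, and was listed at 114 FPKM in the normal cat and 109 FPKM in the affected cat. A second row of that name lies on chromosome A2, the chromosome of *SLC26A4*, and was listed at 0 in both. In RefSeq's gene table for the later cat assembly F.catus_Fca126_mat1.0, *SLC26A3* is on chromosome A2 only. Of the 66 members described that matched that table by symbol, the other 65 lay on a chromosome of the same name. The B2 row is therefore not read as this anion exchanger.

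Of the 7 aquaporins analysed, 4 reached 1 FPKM and none reached 10 FPKM. *AQP1*, a main water channel of nonpigmented ciliary epithelium and of the outflow tract, and *AQP5* were not analysed here. *AQP11*, an intracellular aquaporin, was listed at 7.79 FPKM in the normal cat and 7.54 FPKM in the affected cat. *AQP3*, a channel for water and glycerol in surface epithelia such as cornea and conjunctiva, was listed at 5.84 and 1.21 FPKM, 4.83-fold lower (counting interval 3.82 to 6.24), with a log2 ratio of -1.63. It lies on chromosome D4 at 57867116 to 57870084. *AQP4*, the water channel of glia and of nonpigmented ciliary epithelium, was listed at 0.19 and 1.36 FPKM. *AQP4* was thus 7.31-fold higher in the affected library (4.15 to 14.5), but its log2 ratio of 0.99 on the scale with 1 FPKM added fell just under a call. *AQP10* went from 1.82 FPKM in the normal cat to 0.44 FPKM in the affected cat, a log2 ratio of -0.97.

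Surface epithelium differed in the same direction as *AQP3*. All 6 markers of corneal and conjunctival epithelium, *KRT3*, *KRT4*, *KRT5*, *KRT12*, *KRT13* and *KRT14*, were called lower, beside 8.46% of all genes. Their log2 ratios ran from -6.13 to -1.91. They summed to 585 FPKM in the normal cat and 23.7 FPKM in the affected cat, and none was at 0. The part of this epithelium in the difference of *AQP3* was not tested. Of 7 skeletal muscle markers 4 were analysed, with a sum of 9.50 FPKM in the normal cat and 37.4 FPKM in the affected cat, and none was at 0. The 2 that reached 1 FPKM, *CKM* and *TNNC2*, were called higher, beside 6.63% of all genes, whereas *CA3* was lower. The part of muscle or fat in the difference of *CA3* was not tested.

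The 19 members under 1 FPKM were *AQP7*, *AQP8*, *AQP9*, *ATP1A4*, *ATP1B4*, *CA1*, *CA6*, *CA7*, *CLCN1*, *SLC4A1*, *SLC9A2* to *SLC9A4*, *SLC12A1*, *SLC12A3*, *SLC12A8*, *SLC26A1*, *SLC26A8* and *SLC26A9*. The highest of their values was 0.93 FPKM, for *SLC12A8*. *CA6*, the secreted enzyme of saliva and tears, was listed at 0 in the normal cat and 0.12 FPKM in the affected cat, and *ATP1B4* alone was listed at 0 in both. A count of 3 fragments on 1 kilobase would give 0.0422 FPKM in the normal cat and 0.0445 FPKM in the affected cat, but a listed 0 can also be a failed estimate and is not read as absence. Of the 3 genes caught by name alone, *SLC4A1AP* was listed at 10.9 and 11.1 FPKM, and *SLC9A3R1* and *SLC9A3R2* had log2 ratios of -0.32 and -0.55.

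Members with a textbook part in secretion were then set beside the whole set. Of 13 such genes 12 were analysed, *AQP1* being the exception, and all 12 reached 1 FPKM. Their sum was 809 FPKM in the normal cat and 697 FPKM in the affected cat, of which *CA2* held 370.2 and 112 FPKM. Their median log2 ratio was 0.18, 7 of 12 were higher in the affected library, and only *CA2* (lower) was called, which is 8.33% of the 12 beside 8.46% of all genes. The markers of ciliary epithelium itself differed more. All 9 reached 1 FPKM, with a sum of 1862 FPKM in the normal cat and 6106 FPKM in the affected cat and a median log2 ratio of 1.43. Of these 9, 5 were called higher and 1, *CPAMD8*, lower, beside 6.63% and 8.46% of all genes. *BEST2*, a channel of the nonpigmented layer, was listed at 21.4 and 115 FPKM, and *OPTC* at 351 and 1235 FPKM. *CPAMD8* was listed at 43.3 FPKM in the normal cat and at 0 in the affected library, which can be a failed estimate, and *MSX1* was listed at 1.17 and 0.099 FPKM. Ciliary epithelium was therefore represented in both libraries, and its marker sum was 3.28-fold higher in the affected library. Most of that sum came from *OPTC*, *COL9A1*, *COL9A2* and *COL9A3*, all called higher. *PAX6* and *ZIC1* were not called, at 148 and 211 FPKM and at 18.6 and 33.8 FPKM. Of 8 pigment cell markers 7 were analysed, *TYR* and *PMEL* were called lower and the sums were 2365 and 1638 FPKM, none at 0. The part of these cell shares in the differences of the carriers was not tested.

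Genes that regulate or work beside these carriers were taken from a list of 31, of which 26 were analysed and 23 reached 1 FPKM. Of these, 3 of 23 were called higher and 2 of 23 lower, beside 6.63% and 8.46% of all genes, and the median log2 ratio was 0.25. The 2 genes called lower encode connexins, the proteins of gap junctions such as those that join both ciliary layers. *GJA1*, or connexin 43, was listed at 683 FPKM in the normal cat and 217 FPKM in the affected cat, a log2 ratio of -1.65. *GJA5*, or connexin 40, was listed at 4.40 and 0.67 FPKM, a log2 ratio of -1.70, from the higher of the 2 rows of that name, whose span is shared with 4 other rows. Surface epithelium, whose markers were lower as given above, also holds connexin 43, and its part in the difference of *GJA1* was not tested. Connexin 40 is also a gene of arterial endothelium, and vascular endothelium markers, of which 5 of 6 were analysed and none was at 0, summed to 97.8 and 37.5 FPKM, with *CDH5*, *TEK* and *CLDN5* called lower. The part of the endothelium in the difference of *GJA5* was not tested.

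The 3 partner genes called higher have different roles. *FXYD1*, a small regulator of the Na,K-ATPase, was listed at 133 FPKM in the normal cat and 294 FPKM in the affected cat, a log2 ratio of 1.14. *SGK1*, a kinase that promotes sodium transport, was listed at 138 and 480.5 FPKM, a log2 ratio of 1.79. *SLC23A2*, the carrier that brings ascorbate into the ciliary epithelium, was listed at 56.9 and 267 FPKM, a log2 ratio of 2.21. The kinases that control the SLC12 carriers differed less. *WNK1* was listed at 39.7 and 58.1 FPKM, *WNK4* at 78.4 and 89.7 FPKM, *STK39* at 18.7 and 24.3 FPKM and *OXSR1* at 10.1 and 9.04 FPKM. *AHCYL1*, which activates SLC4A4, was listed at 58.6 and 103 FPKM, a log2 ratio of 0.81, whereas *SLC4A4* itself was slightly lower. *KCNJ13*, a potassium channel, was listed at 25.2 and 22.5 FPKM. *CFTR* and *BSND*, a chloride channel and a chloride channel subunit, stayed at or under 0.32 FPKM.

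The remaining marker lists touch other tissue that the dissection could hold. Lens markers, 6 of 7 analysed, summed to 18852 FPKM in the normal cat and 28657 FPKM in the affected cat, with *BFSP1*, *BFSP2*, *CRYBB2* and *LIM2* called higher. Of all genes 6.63% were called higher and 8.46% lower. The 5 retinal pigment epithelium markers had a median log2 ratio of -0.30, although their sum was 267 and 317 FPKM, led by *RLBP1*. Among them *RPE65* was called lower, at a log2 ratio of -1.001, just past the limit of a call. The 3 Schwann cell markers described had a median of -0.43 with *MBP* called higher, and a sum of 62.8 and 81.5 FPKM. Leukocyte markers had a median of -0.31 with no call. Their part in the differences of the carriers was not tested.

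**Figure D4:**
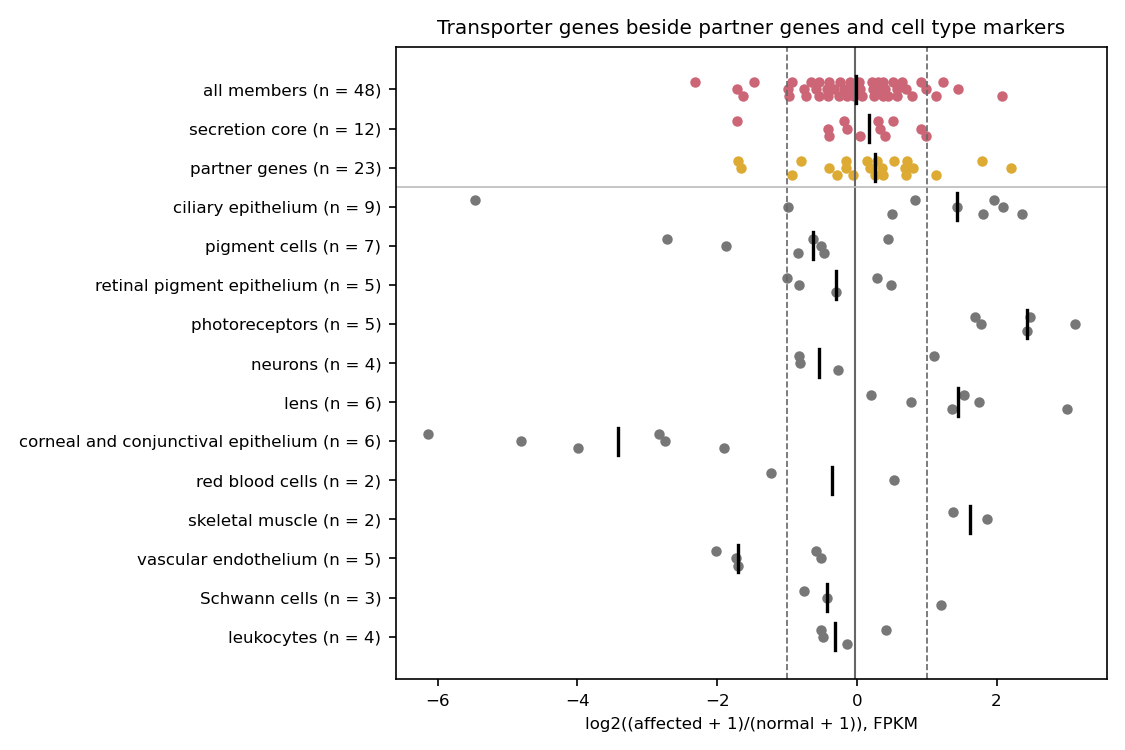
Log2 ratio, affected over normal, of each gene that reached 1 FPKM, for all members, the secretion list, the partner genes and the lists of cell type markers. Black bars are medians, the solid line is the median of all genes (-0.02) and dashed lines mark a 2-fold difference. The members centre near 0 (median -0.0068). Ciliary epithelium, photoreceptor, lens and skeletal muscle markers lie mostly to the right, and surface epithelium and endothelium markers to the left.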

How the data were processed

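Polyadenylated RNA of the iridocorneal angle was sequenced from 1 normal and 1 affected cat. The values used are the FPKM that the authors deposited, made by aligning reads to felCat5 with TopHat2 2.0.9 and Ensembl gene predictions and estimating abundance with Cufflinks 2.1.1. Filters and the scaling between libraries are not given in the sources used here. Groups were taken from the disease state in the labels. Coordinates are those of the table, and some spans cover several rows.

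FPKM are not counts, and with 1 library per condition no test was made. The value of 1 fragment was recovered from unnamed loci of 300 to 2000 bases, where 97.6% of 2272 values (normal) and 96.5% of 2194 values (affected) fell no more than 0.03 from a whole number, while chance would give 6%. Text names members of at least 10 FPKM, members called or at 0 in exactly 1 library, the secretion list, and called partner and marker genes, with further examples. The members and lists were chosen with earlier results of these data known, and the grouping by role was made after the names were known. Alternatives were a pseudocount of 0.1, 2 rescalings, other minimum levels, a 4-fold threshold, and other treatments of joined, repeated or doubtful rows. Results of 6 members and 3 genes of the other lists are not reported here, and these genes were left out of all counts, sums, medians and figures except those over all genes. RefSeq's gene table was used for names and neighbours only. The procedures were tested on simulated data. Python 3.11.15, numpy 2.4.6, pandas 2.3.3, scipy 1.17.1 and matplotlib 3.10.9 were used.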

Additional observations from a re-analysis of the deposited data

Results flagged for a closer look

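Signal was listed at 4 loci that join a member's name with other names and that were left out of the members, because a joined value cannot be divided between its genes. They entered an alternative count only, in which 6 genes or loci were called higher and 4 lower. The locus named AQP2 and AQP6 was listed at 61.2 FPKM in the normal cat and 41.3 FPKM in the affected cat, above the 7 aquaporins analysed on rows of their own. In RefSeq's gene table *AQP5* stands between these genes, and it was not analysed here. The locus named CA11 and DBP was listed at 70.5 FPKM in the normal cat and 146 FPKM in the affected cat, a log2 ratio of 1.03. The locus named LCAT and SLC12A4 was listed at 47.5 FPKM in the normal cat and 79.8 FPKM in the affected cat. The locus named CELSR3, an Ensembl identifier and SLC26A6 was listed at 7.84 FPKM in the normal cat and 18.2 FPKM in the affected cat, a log2 ratio of 1.12.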

How the results depend on the processing

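With 1 library per condition the variation between cats could not be estimated for any gene, at any level. Counting error weighs most on the genes near or under 1 FPKM. No paired analysis was possible because only 1 library stands for either condition. The median of all members, -0.0068, turned positive with rescaling by the median ratio (0.017), with a mean of at least 5 FPKM (0.24), with no minimum (0.023) and without the *SLC26A3* row on B2 (0.027). With a pseudocount of 0.1 the members called lower numbered 7, while the shares of all genes called were 8.83% higher and 11.9% lower in place of 6.63% and 8.46%, the secretion genes called higher 1 and the partner genes called higher 5, and the aquaporin median was -0.94. The added calls among members were *AQP10*, *SLC26A5* and *SLC26A10* (lower), and *AQP4* and *SLC4A9* (higher). The *SLC4A9* call rests on 1 of its 2 rows. With both rows summed its log2 ratio, on the scale with 1 FPKM added, was 0.093. With the FPKM of either library brought to a sum of 1000000, 7 members and 10.3% of all genes were called lower, *CA3* among them at -1.04, 1 secretion gene was called higher, and the medians were -0.65 for aquaporins and -0.39 for SLC26. Rescaling by the median ratio called 1 secretion gene higher, *AQP4* at 1.01. With a mean of at least 5 FPKM, 2 members and 1 partner gene were called lower, and the medians were -0.041 for aquaporins, -0.59 for carbonic anhydrases, 0.74 for SLC9, 0.31 for the secretion genes and 0.25 for SLC26, the last reversed in sign. Of all 9161 genes then left, 6.23% were called lower. *SLC26A7* and *AQP3*, called lower in the main setting, left the list through their affected values of 0.72 and 1.21 FPKM. With no minimum the medians were -0.041 for aquaporins, -0.14 for carbonic anhydrases, 0.41 for the Na,K-ATPase and 0.055 for SLC12. A 4-fold threshold left 1 member higher and 1 lower. Without the *SLC26A3* row on B2, an alternative chosen after seeing the data, the SLC26 median was -0.48. Other causes were not tested. Log2 ratios of the 48 genes were recomputed 226 times, 26 of these values shifted by 0.1 or more, and no called gene changed sign.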
